A study of Mus musculus with 10 samples.

Results

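TIGIT and its relatives form a small family of immunoglobulin-like cell surface proteins, and 7 of their genes are described here in RNA of mouse 4T1 tumors: Tigit, Cd226, Cd96, Pvr, Nectin1, Nectin2 and Nectin3. They are 7 of the 34449 genes in the deposited table and were found by gene name. The table places Tigit (ENSMUSG00000071552), Cd96 (ENSMUSG00000022657) and Nectin3 (ENSMUSG00000022656) on chromosome 16, Pvr (ENSMUSG00000040511) and Nectin2 (ENSMUSG00000062300) on chromosome 7, Nectin1 (ENSMUSG00000032012) on chromosome 9 and Cd226 (ENSMUSG00000034028) on chromosome 18. The set was chosen by measured values, because Tigit lay above 40 FPKM while Cd3e, a T cell receptor subunit, lay below 1 FPKM. FPKM divides a gene's fragments by the length of its transcript and by the sequencing depth, so levels of different genes can be set side by side on it. The levels of Tigit and Cd3e, and their relation, are therefore a description given without a p-value.

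TIGIT and CD96 are inhibitory receptors of T cells and NK cells, and CD226 (DNAM-1) is the activating receptor that competes with them. All of them bind PVR (CD155), and TIGIT and CD226 also bind nectin-2, so that cells carrying these ligands can restrain or trigger lymphocytes. Nectins are at the same time adhesion molecules, which bind each other across cell contacts and hold on to actin through afadin at adherens junctions.

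The 4T1 line is a mouse mammary carcinoma, here grown in BALB/C mice that the series describes as 9-week old. Tumors of the control group (5 libraries) were compared with tumors of the therapy group (5 libraries). Per the study's methods, therapy was BC@Z-M + L, in which nanoparticles carry the hypoxia-responsive dye BN-O and the vascular disrupting agent CA4P inside ZIF-8 under a coat of M1-like macrophage membrane, followed by light. The controls came from mice not given BC@Z-M + L, and the sources used here do not say what they received instead. Nor do they say whether each library is its own mouse, so every p-value here refers to variation between libraries only. The series text speaks of triplicates although 5 libraries a group are listed.

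Estimated counts summed to between 53411182 and 77510631 per library. Whole tumors were sequenced, so fewer cells of a type and less RNA per cell cannot be told apart. The libraries held high levels of epithelial keratins (Krt8, mean 977 FPKM) and of macrophage complement genes (C1qa, mean 135 FPKM). Of 15 T cell genes, 10 had a mean under 1 FPKM, while the T cell receptor constant genes Trbc1 and Trbc2 had means of 9.07 and 5.57 FPKM. Therapy replicate 2 stood apart: its 7 keratinocyte genes summed to 281 FPKM against 3.34 to 49.0 FPKM in the other libraries, and its T cell genes to 49.2 FPKM against 13.1 to 43.9 FPKM. Values without it are given beside the results below that it changed most.

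The promoters are shown first because Tigit was measured above the nectins and far above the other lymphocyte receptors, while its promoter window was nearer to that of Cd96 in CpG number and GC content. The RefSeq promoter table (GRCm38.p6) covers 250 bases before and 50 bases after each start and held 4 of the 7 genes. All of them lie on the minus strand: Tigit at chr16:43664135-43664434, Cd96 at chr16:46120199-46120498, Nectin3 at chr16:46496918-46497217 and Nectin2 at chr7:19749524-19749823. Sequences run 5′ to 3′ in the direction of the gene, and capitals mark the letters of any of 8 motifs searched on both strands.
Tigit: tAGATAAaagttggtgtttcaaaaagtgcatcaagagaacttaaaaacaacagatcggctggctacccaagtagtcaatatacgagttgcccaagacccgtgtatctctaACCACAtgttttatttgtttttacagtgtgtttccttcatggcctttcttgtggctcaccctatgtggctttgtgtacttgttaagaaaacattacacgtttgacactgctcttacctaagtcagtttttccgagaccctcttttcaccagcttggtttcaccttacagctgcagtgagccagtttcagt
Cd96: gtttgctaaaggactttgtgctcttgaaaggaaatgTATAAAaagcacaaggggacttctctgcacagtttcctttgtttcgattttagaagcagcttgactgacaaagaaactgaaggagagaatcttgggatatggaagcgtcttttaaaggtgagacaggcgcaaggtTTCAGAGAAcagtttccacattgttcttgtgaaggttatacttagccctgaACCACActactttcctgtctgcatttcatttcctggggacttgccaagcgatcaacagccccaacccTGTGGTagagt
Nectin2: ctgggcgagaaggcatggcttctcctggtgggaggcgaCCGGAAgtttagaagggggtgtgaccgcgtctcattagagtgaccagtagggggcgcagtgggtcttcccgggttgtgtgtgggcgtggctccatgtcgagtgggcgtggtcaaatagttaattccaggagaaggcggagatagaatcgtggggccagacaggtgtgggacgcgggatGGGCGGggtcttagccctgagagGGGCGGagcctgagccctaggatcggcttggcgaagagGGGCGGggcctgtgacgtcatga
Nectin3: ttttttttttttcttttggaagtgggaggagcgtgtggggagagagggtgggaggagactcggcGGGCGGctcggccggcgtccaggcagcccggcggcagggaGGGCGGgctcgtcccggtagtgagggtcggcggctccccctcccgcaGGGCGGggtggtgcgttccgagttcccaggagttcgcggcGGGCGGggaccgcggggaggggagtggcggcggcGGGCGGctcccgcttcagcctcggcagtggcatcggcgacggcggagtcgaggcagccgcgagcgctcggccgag

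CpG pairs, which are dense in the promoters of many broadly expressed genes, numbered 5 in the window of Tigit and 4 in that of Cd96. The windows of Nectin2 and Nectin3 held 20 and 40 CpG pairs, and the median of all 32851 promoters in the table was 7. G and C made up 41.3% of the Tigit window, 43.7% of the Cd96 window, 62.7% of the Nectin2 window and 73.7% of the Nectin3 window. The receptor genes thus lay below the median CpG number and the nectins above it.

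The GC box (GGGCGG), found in 35.7% of all promoters, occurred 3 times in the Nectin2 window and 5 times in the Nectin3 window, and its letters were not in the windows of Tigit or Cd96. The RUNX motif (TGTGGT), in 16.8% of all promoters, was in the windows of Tigit (at -140, reverse strand, written ACCACA there) and of Cd96 (at 40 forward and at -28 reverse), and not in those of the nectins. RUNX factors are regulators of T and NK cell genes. Cd96 also had a TATA box (TATAAA, in 13.6% of promoters) at -214 and a GAS motif (TTCNNNGAA, in 8.30%) at -79, Tigit a GATA motif (AGATAA, in 11.2%) at -249, and Nectin2 an ETS motif (CCGGAA, in 14.9%) at -212. The CCAAT box (CCAAT, in 37.4%) and the AP-1 motif (TGANTCA, in 7.81%) had no match in these windows. None of these matches overlapped another, and a match describes letters only.

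Tigit was the most abundant of the 7 genes in each of the 10 libraries. In the control libraries, replicates 1 to 5, it was measured at 54.4, 27.8, 51.9, 40.1 and 44.2 FPKM. In the therapy libraries it was at 29.7, 28.9, 48.6, 32.1 and 96.8 FPKM. The groups overlapped over almost their whole range, since therapy replicate 5 was the only therapy library above the highest control and 3 therapy libraries lay between 28.9 and 32.1 FPKM, near the lowest control.

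Of all genes in the table, 97.1% had a lower mean than Tigit. Its level passed 40 FPKM in 6 of 10 libraries, with 40.1 FPKM just above that value and 32.1 FPKM just below it. Cd3e was under 1 FPKM in all libraries but therapy replicates 2 and 5, with 1.05 FPKM just above and 0.814 FPKM just below. The ratio of Tigit to Cd3e ranged from 17.3 to 259.6, with a median of 82.3. All 15 T cell genes, 9 NK cell genes and 8 regulatory T cell (Treg) genes of the marker lists lay below Tigit in each library. As Tigit is a receptor of just these cells, its own transcript was looked at next.

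The table gives Tigit a single transcript, ENSMUST00000096065, which in GENCODE M21 (GRCm38) has 4 exons, 919 bases and 723 coding bases. The length implied by the deposited counts and FPKM was 1010 bases, or 1.10 times the transcript. For 1710 genes with a single transcript, Tigit among them, the median of this ratio was also 1.10. The value of Tigit was thus scaled to its length like that of the others. The last 131 bases of the transcript, 14.3% of it, lie in the 3′ untranslated region and are a simple repeat in which 85.5% of the letters are C or T. Transcripts of 825 other genes matched this stretch in a blastn search with the whole transcript (E-value limit 1e-10). Of these, 67 matched at 95% identity or more over 50 bases or more. The stretch was defined by this search, as base 789 is where the first match starts. The lack of matches before it is therefore no separate result.

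Levels of genes with runs of CT or AG, Tigit among them, are given for scale. These runs are not the repeat stretch itself, so the values do not say what that stretch does to a level. Runs of CT or AG summing to 40 bases or more, a limit set after the 42 bases of Tigit were seen, occurred in 248 of 17080 genes with a single transcript. Their median level was 0.0087 FPKM, against 0.026 FPKM for those without, and 0.806% of them (2 genes) against 1.59% of the others lay above the mean of Tigit. The deposited values are per gene, so where along the transcript the reads of Tigit lie was not analysed here, and the part of the repeat in its level was not tested.

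In the RefSeq gene table (GRCm38.p6) Tigit overlaps Zbtb20, a gene for a zinc finger repressor. The library kit that the methods name does not mark strand, so reads from the overlap cannot be assigned. Zbtb20 was measured at 0.283 to 0.696 FPKM, and the neighbour Gap43, a neuronal growth gene, at 0 to 0.439 FPKM. The neighbour on the other side was not analysed here.

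Cd226, the activating counterpart of TIGIT, lay at the bottom of the family. Its control libraries were at 0.031, 0.204, 0.170, 0.106 and 0.076 FPKM. Its therapy libraries were at 0.164, 0.505, 0.370, 0.166 and 0.154 FPKM. Therapy replicates 2 and 3 exceeded all controls, and the other therapy libraries lay within the control range. These values rest on 10 to 173 estimated counts per library, and small counts in the table can stand for more or less than 1 read.

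Cd96, the other inhibitory receptor, was measured at 0.169, 0.310, 0.361, 0.227 and 0.241 FPKM in control tumors. After therapy it was at 0.313, 1.17, 0.663, 0.244 and 0.338 FPKM. Again therapy replicates 2 and 3 were above all controls, and the groups overlapped in the rest. Estimated counts were 23 to 178 per library. The ratio of Tigit to Cd96 ran from 24.7 to 320.9 and that of Tigit to Cd226 from 57.2 to 1731, so that Tigit exceeded the receptors that share its ligand by at least 24.7-fold in each library.

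Pvr encodes the ligand that TIGIT, CD96 and CD226 share. It was the second most abundant member, with 19.8, 14.4, 15.5, 20.3 and 23.1 FPKM in control tumors. Therapy tumors had 11.8, 15.7, 17.3, 20.0 and 23.5 FPKM. The lowest and the highest library were both therapy libraries and enclosed all controls.

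Nectin2, the other ligand of TIGIT and CD226, was at 10.5, 10.4, 13.6, 12.1 and 14.2 FPKM in controls and at 15.7, 13.8, 15.8, 12.6 and 12.1 FPKM after therapy. Therapy replicates 1 and 3 were above all controls, and the other 3 were within the control range. Its neighbour Tomm40, a mitochondrial import channel, was at 12.8 to 19.9 FPKM. The standard deviation (SD) of Nectin2 was 14.3% of the mean in controls and 12.1% after therapy, where Tigit had 24.2% and 61.1%.

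Nectin1 and Nectin3 are adhesion partners of each other at cell contacts. Nectin1 had 2.18, 1.56, 2.19, 2.21 and 2.53 FPKM in controls and 2.56, 4.33, 2.77, 2.28 and 3.82 FPKM after therapy. In 4 of 5 therapy libraries it was above all controls, and only therapy replicate 4 fell among them. Nectin3 had 1.95, 2.70, 1.36, 1.91 and 1.88 FPKM in controls and 1.95, 1.65, 1.87, 1.77 and 1.52 FPKM after therapy, each therapy value lying inside the control range.

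**Figure D1:**
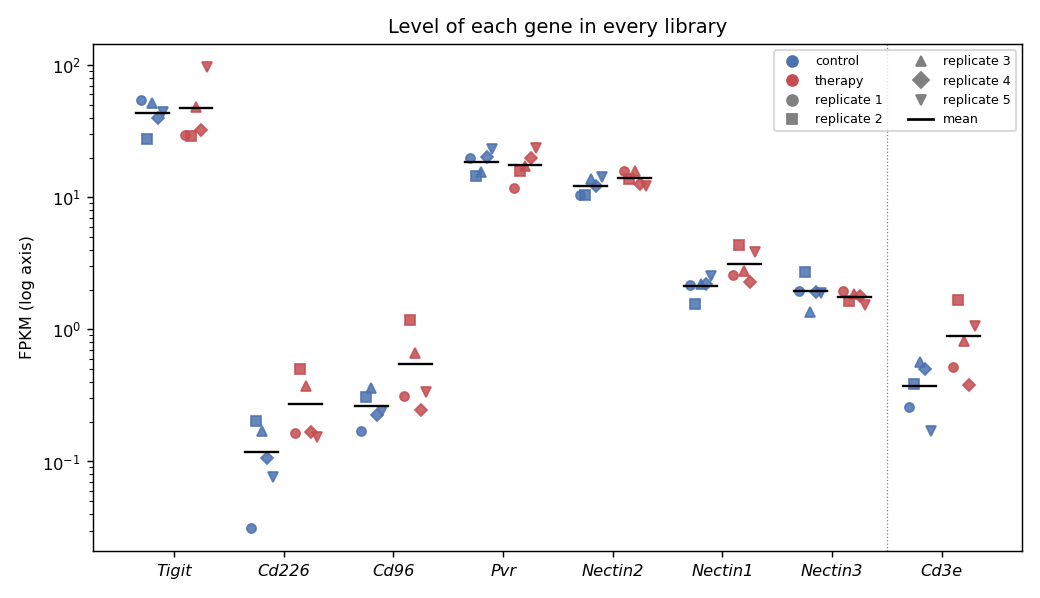
Level of the 7 genes and of Cd3e in each of the 10 libraries, as FPKM on a log axis. Points are libraries (blue control, red therapy, marker shape by replicate number) and black lines are group means. Tigit lies above every other gene shown in each library, and therapy replicate 5 is its highest point at 96.8 FPKM.

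The means fell in the order Tigit (45.5 FPKM), Pvr (18.1), Nectin2 (13.1), Nectin1 (2.64), Nectin3 (1.85), Cd96 (0.403) and Cd226 (0.195 FPKM). Neighbours in this order kept their places in 10 of 10 libraries for Tigit over Pvr, Nectin2 over Nectin1, Nectin3 over Cd96 and Cd96 over Cd226. Pvr was above Nectin2, and Nectin1 above Nectin3, in 9 libraries each, so the ranges of these neighbours overlapped. The exceptions were therapy replicate 1, with Pvr at 11.8 and Nectin2 at 15.7 FPKM, and control replicate 2, with Nectin1 at 1.56 and Nectin3 at 2.70 FPKM.

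Whether therapy moved the members was tested with edgeR's quasi-likelihood test on the estimated counts of 18668 genes. After Benjamini-Hochberg adjustment over all of them 0 genes passed 0.05 (0%), the 7 members included, while 546 genes had an unadjusted p under 0.05. DESeq2 called 4 genes higher and 2 lower (862 unadjusted) and limma 0 (323 unadjusted), in each case no member. In this fit the smallest adjusted p that any member had was 0.985.

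At an unadjusted p under 0.05 in edgeR, 3 of the 7 members were higher after therapy, against 1.9% of all genes tested. Nectin1 had a log2 fold change of 0.59 ± 0.20 (SE, 5 against 5 libraries, unadjusted p = 0.0141), Cd96 of 1.06 ± 0.44 (unadjusted p = 0.0337) and Cd226 of 1.20 ± 0.51 (unadjusted p = 0.0361). In means this was 1.48-fold for Nectin1, 2.09-fold for Cd96 and 2.32-fold for Cd226. By the exact permutation test of log2(FPKM + 1) the unadjusted p was 0.0159 for Nectin1, 0.0794 for Cd226 and 0.111 for Cd96, and 1 of 7 members was under 0.05 against 3.3% of all genes. In 0 of 7 members did the groups not overlap, a pattern seen in 0.482% of all genes.

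The values of Cd226, Cd96 and Nectin1 were smaller without therapy replicate 2. When this library was left out the edgeR log2 fold change of Cd96 was 0.58 ± 0.37 (unadjusted p = 0.145), that of Cd226 0.85 ± 0.50 (unadjusted p = 0.116) and that of Nectin1 0.45 ± 0.20 (unadjusted p = 0.0413). Without therapy replicates 2 and 5 together, chosen after seeing the data, Nectin1 had 0.23 ± 0.16 (unadjusted p = 0.182). Control replicate 1, the lowest of all for Cd226 and Cd96, also mattered: without it the unadjusted edgeR p was 0.0683 for Cd226 and 0.0766 for Cd96.

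The other 4 members were not under an unadjusted p of 0.05 in edgeR, Nectin2 being the nearest to it. In edgeR Tigit had a log2 fold change of 0.16 ± 0.35 (unadjusted p = 0.661), Pvr of -0.050 ± 0.19 (unadjusted p = 0.801), Nectin2 of 0.22 ± 0.11 (unadjusted p = 0.0690) and Nectin3 of -0.15 ± 0.17 (unadjusted p = 0.378). The sign of Tigit hung on therapy replicate 5, since without this library the value was -0.34 ± 0.21 (unadjusted p = 0.137 in edgeR). The value of Nectin3 rested on control replicate 2, its highest library, and was -7.6e-05 without it.

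**Figure D2:**
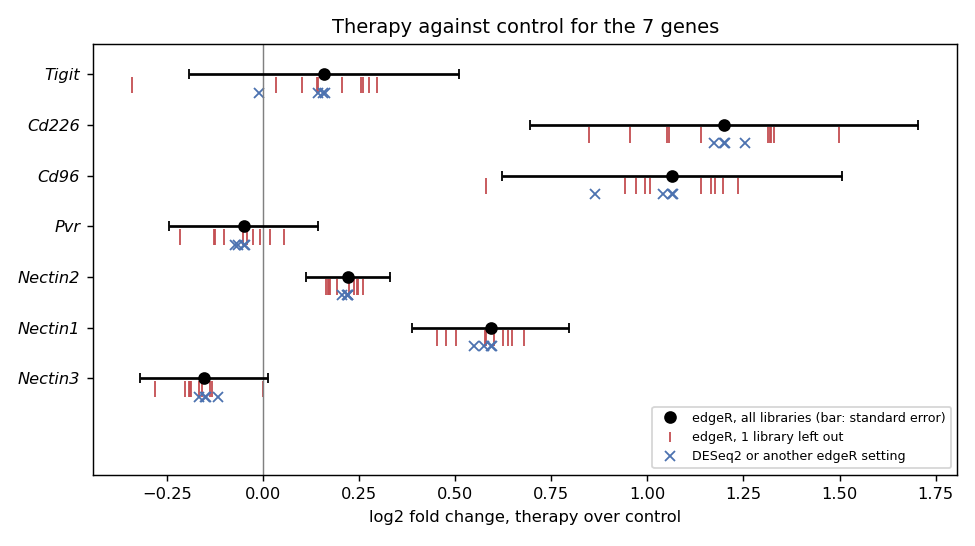
Log2 fold change of therapy over control for the 7 genes. Black points and bars are edgeR estimates with their standard errors over all 10 libraries, red ticks are estimates with 1 library left out, and blue crosses are DESeq2 or other edgeR settings. Tigit falls to -0.34 without therapy replicate 5, and Cd96 to 0.58 without therapy replicate 2.

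Other marker genes differed in the same comparison, and 0 of those listed passed the adjusted edgeR test. At an unadjusted edgeR p under 0.05, 10 of 15 T cell genes, 5 of 9 NK cell genes and 3 of 8 Treg genes were higher, against 1.9% of all genes, with median log2 fold changes of 0.89, 1.01 and 0.82 against 0.016 for all genes. Without therapy replicate 2 the counts were 5, 1 and 2, against 1.77% of all genes in either direction, and the medians 0.65, 0.79 and 0.72. Keratinocyte genes had a median of 2.13 with and -1.56 without that library, skeletal muscle genes 1.53 and 1.09, and adipocyte genes -1.30 and -1.23.

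The NK cell genes summed to 3.39 to 6.29 FPKM in controls and 6.55 to 16.1 FPKM after therapy (to 9.55 FPKM without therapy replicate 2). Treg genes summed to 2.89 to 5.56 and 3.87 to 8.45 FPKM. T cell genes summed to 13.1 to 43.9 and 14.4 to 49.2 FPKM (to 29.2 FPKM without that library). No listed gene was at 0 in all libraries, and the part of these cells in the values of Cd226, Cd96 and Nectin1 was not tested.

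Cd3e itself was at 0.259, 0.386, 0.564, 0.499 and 0.170 FPKM in controls and at 0.519, 1.67, 0.814, 0.381 and 1.05 FPKM after therapy. Cd226 and Cd96 went with it across the 10 libraries on the log2(FPKM + 1) scale. For Cd96 Pearson's r was 0.86 (permutation p = 0.0042, adjusted 0.0156) and Spearman's rho 0.87 (permutation p = 0.0021, adjusted 0.0107). For Cd226 r was 0.82 (permutation p = 0.0062, adjusted 0.0156) and rho 0.65 (permutation p = 0.0491, adjusted 0.123). The permutations ignored group, so these p-values also take in the difference between groups. Within controls r was 0.60 for Cd96 and 0.62 for Cd226, and within therapy libraries 0.85 and 0.74.

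Without therapy replicates 2 and 5, the libraries farthest from the median of Cd3e, r was 0.82 for Cd96 and 0.83 for Cd226. For Tigit against Cd3e, given without a p-value, r was 0.087, rho was 0.030 and r was 0.047 without the same libraries. Tigit against the epithelial gene Epcam gave r of 0.37 (permutation p = 0.306, adjusted 0.382), rho of 0.22 (permutation p = 0.536, adjusted 0.670) and r of 0.59 without control replicate 3 and therapy replicate 1. Nectin1 against the keratin gene Krt14 gave r of 0.52 (permutation p = 0.117, adjusted 0.194), rho of 0.30 (permutation p = 0.404, adjusted 0.670) and r of 0.20 without therapy replicate 2 and control replicate 1. These were 5 relations, adjusted together, and Tigit against Cd3e counts among them although its p is not given.

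**Figure D3:**
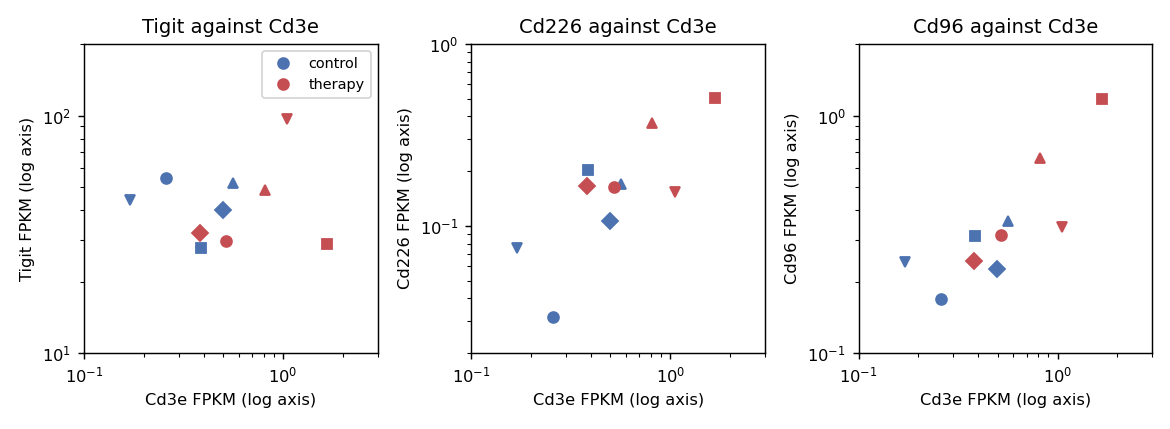
FPKM of Tigit, Cd226 and Cd96 against FPKM of Cd3e in the 10 libraries, all axes logarithmic (blue control, red therapy, marker shape by replicate number). Cd226 and Cd96 are highest in therapy replicate 2 (0.505 and 1.17 FPKM), where Cd3e is at 1.67 FPKM and Tigit at 28.9 FPKM.

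Over whole marker lists, in a description added after seeing the data, the receptors had these values. The median r with the 15 T cell genes was 0.75 for Cd226, 0.76 for Cd96 and 0.07 for Tigit, where the median over all genes of at least 1 FPKM was -0.051, -0.070 and -0.11. Cd226 and Cd96 had a positive r with 15 of 15 T cell genes and 9 of 9 NK cell genes, Tigit with 8 of 15 and 1 of 9. These libraries share depth and tissue make-up, so the r values carry no test.

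For T cell genes this gap between the receptors was smaller without therapy replicate 2. Without it the median r with T cell genes was 0.49 for Cd226, 0.49 for Cd96 and 0.40 for Tigit. These medians still include therapy replicate 5, the highest library of Tigit at 96.8 FPKM. For Cd3e alone, without therapy replicates 2 and 5, the gap stayed, with r of 0.83, 0.82 and 0.047. The medians without both libraries were not computed. With NK cell genes a gap remained, with medians of 0.72, 0.60 and -0.15 over all libraries and 0.49, 0.29 and 0.01 without therapy replicate 2. With Treg genes the medians without therapy replicate 2 were 0.37, 0.39 and 0.44. For Nectin1 the median r with T cell genes was 0.77 with and 0.58 without that library, although nectin-1 is chiefly an epithelial and neuronal adhesion molecule. With keratinocyte genes the median r of Nectin1 was 0.54 with and -0.05 without it, and that of Cd96 0.73 and 0.01.

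Tigit and Pvr had negative r values with fibroblast genes over the 10 libraries. With the 7 fibroblast genes the median r was -0.62 for Tigit and -0.55 for Pvr (-0.59 and -0.53 without therapy replicate 2), with a positive r for 0 of 7 genes in either case. The median over all genes of at least 1 FPKM was -0.11 for Tigit, -0.015 for Pvr and 0.079 for Nectin2. Nectin2 did the opposite, at 0.60 with fibroblast and 0.56 with endothelial genes (0.63 and 0.66 without therapy replicate 2). Therapy replicate 5 had the highest Tigit and Pvr (96.8 and 23.5 FPKM) and the lowest sum of fibroblast genes (197 FPKM). The r values without therapy replicate 5 were not computed. With the 10 epithelial tumor cell genes the medians were near 0 for Tigit (0.03), Nectin2 (0.00) and Nectin1 (0.09). The single genes of this list differed widely. For Tigit r ran from -0.54 to 0.84 and was positive for 5 of 10 genes. It was above 0.5 for 3 of 10, against 8.03% of all genes of at least 1 FPKM. Krt18, Krt19 and Cdh1 were also highest in therapy replicate 5 (1134, 79.3 and 89.0 FPKM), and Krt7 was lowest there (43.6 FPKM). How far these r values rest on that library was not tested.

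**Figure D4:**
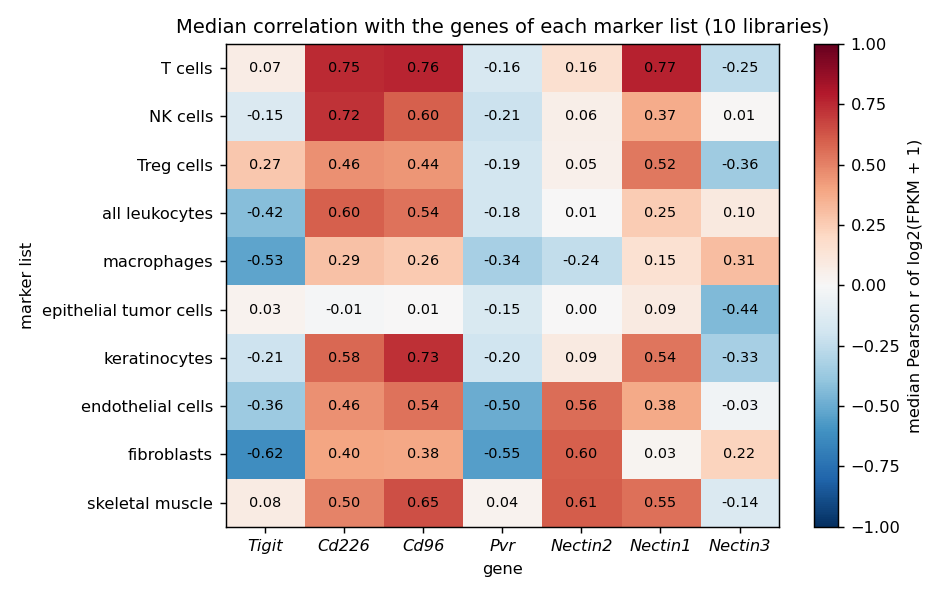
Median Pearson r across the 10 libraries between each of the 7 genes (columns) and the genes of each marker list (rows), on log2(FPKM + 1), with red for positive and blue for negative values. Cd226 and Cd96 are at 0.75 and 0.76 with T cell genes and Tigit at 0.07, and without therapy replicate 2 these values are 0.49, 0.49 and 0.40.

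Among the members themselves Cd226 and Cd96 were the closest pair, with r of 0.96 over 10 libraries and 0.93 without therapy replicate 2. Tigit had r of 0.63 with Pvr (0.61 without therapy replicate 2 and 0.49 without therapy replicate 5) and of 0.30 with Nectin1 (0.75 and -0.14), so which of them was nearest to Tigit depended on these libraries. With Cd226 Tigit had r of -0.33 and with Cd96 -0.23, the latter 0.14 without therapy replicate 2. The pairs share the libraries, and no test was made.

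Among 12802 genes with a mean of at least 1 FPKM, those most like Tigit over the 10 libraries were Gm1976 (r of 0.93), Swap70 (0.93), Ahnak (0.91), Desi2 (0.90) and Lipg (0.90). Without therapy replicate 5, the highest library of Tigit, these r values were between 0.74 and 0.85. Swap70 encodes an actin-binding signaling protein, Ahnak a very large scaffold protein and Lipg endothelial lipase. For Cd226 they were Ltb (0.93), a lymphotoxin subunit, and Cd74 (0.92), the MHC class II invariant chain, at 0.86 and 0.83 without therapy replicate 2. Cd96 was nearest to Nyap1 (0.94) and Krt71 (0.93), the latter a keratin of hair follicles at 71.0 FPKM in therapy replicate 2 and at most 1.45 FPKM elsewhere. Without that library these r values were 0.91 and 0.88.

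The ligands and nectins had other partners. Pvr was nearest to Slc4a8 (0.96) and Slc25a5 (0.92), an ion transporter and a mitochondrial ADP/ATP carrier. Nectin2 was nearest to Plekha8 (0.94) and Ahsa1 (0.91), an HSP90 co-chaperone. Nectin1 went with Jarid2 (0.95) and Runx2 (0.92), a chromatin factor and an osteoblast transcription factor, and Nectin3 with Vkorc1 and Tmed1 (0.98 each), the vitamin K epoxide reductase and a trafficking protein.

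Since these receptors compete for shared ligands, 6 ratios between genes were compared as log2 of FPKM + 0.1, by two-sided exact permutation tests whose smallest possible p is 0.00794, with p-values adjusted over the 6. Tigit relative to Cd3e chose the set, so its p is not given, although it counts among the 6 in the adjustment. This ratio was 6.56 ± 0.69 (SD, n = 5) in controls and 5.56 ± 0.91 (n = 5) after therapy. The difference was -0.998, and it was -0.62 without therapy replicate 2, the lowest library of this ratio at 4.03. Tigit relative to Cd226 was 7.68 ± 0.79 and 6.92 ± 1.07, a difference of -0.76 (exact p = 0.262, adjusted 0.417). It was -0.43 without therapy replicate 2, -0.51 without control replicate 1 and -1.17 without therapy replicate 5. The groups overlapped in both ratios.

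Cd226 relative to Cd3e differed by -0.24 (exact p = 0.460, adjusted 0.460) and Cd96 relative to Cd3e by -0.30 (exact p = 0.349, adjusted 0.419). Without therapy replicate 5 these differences were -0.03 and -0.11. Without control replicate 5 they were -0.11 and -0.13, and without control replicate 2 the former was -0.13. With a pseudocount of 0.01 the difference for Cd226 was 0.038, so its direction depended on the pseudocount.

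The ligand ratio of Pvr to Nectin2 was 0.60 ± 0.28 and 0.30 ± 0.52, a difference of -0.30 (exact p = 0.278, adjusted 0.417). It was -0.12 without therapy replicate 1 and -0.46 without therapy replicate 5. Nectin3 relative to Nectin2 differed by -0.33 (exact p = 0.190, adjusted 0.417), with an SD of 0.50 in controls and 0.10 after therapy, and by -0.16 without control replicate 2. Apart from Tigit to Cd3e, which is not read as a test, no ratio had an adjusted p under 0.05 with any library left out.

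**Figure D5:**
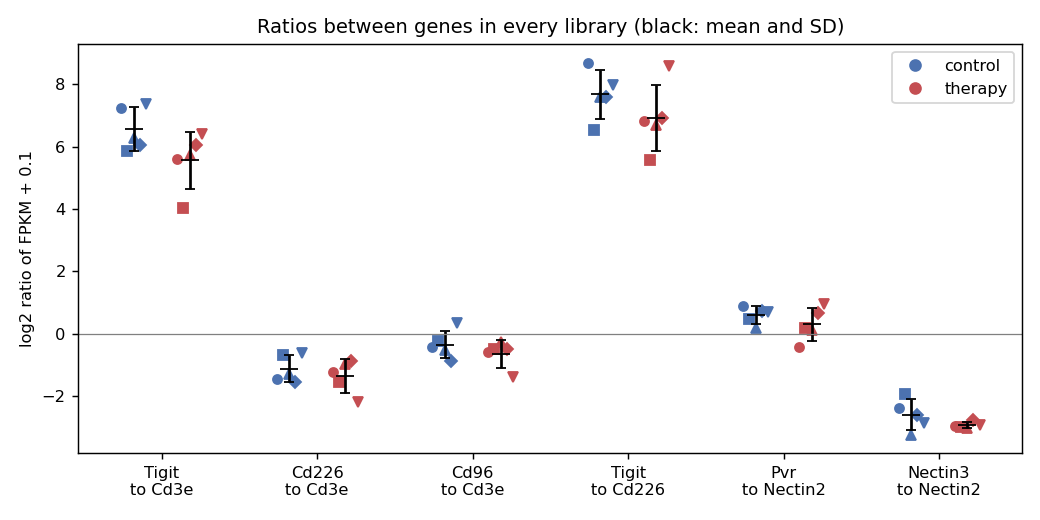
The 6 log2 ratios of FPKM + 0.1 in each library (blue control, red therapy, marker shape by replicate number), with mean and SD in black. The groups overlap in each ratio, and Tigit to Cd3e has means of 6.56 in control and 5.56 in therapy libraries.

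Other lymphocyte receptors of the nectin system were low like Cd226 and Cd96. Pvrig, an inhibitory receptor of nectin-2, ranged from 0.271 to 0.608 FPKM in controls and from 0.226 to 0.922 FPKM after therapy, with an edgeR log2 fold change of 0.03 ± 0.43 (unadjusted p = 0.945). Crtam, which binds the nectin-like molecule Cadm1, ranged from 0.031 to 0.230 and from 0.073 to 0.751 FPKM, with 1.38 ± 0.74 (unadjusted p = 0.0897 in edgeR). In this list of 5 receptors 2 (Cd226 and Cd96) had an unadjusted p under 0.05, against 1.9% of all genes, and the median log2 fold change was 1.06 against 0.016. Without therapy replicate 2 the count was 0 and the median 0.58.

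In the list of 9 nectins and nectin-like molecules 1 gene, Nectin1, was higher at an unadjusted edgeR p under 0.05, against 1.9% of all genes. In this list 0 were lower, and the median log2 fold change was 0.22, or 0.079 without therapy replicate 2. Nectin4, a nectin of skin, was at 0.307 to 0.655 FPKM in controls and 0.372 to 2.49 FPKM after therapy, with 0.79 ± 0.51 (unadjusted p = 0.150 in edgeR). Cadm4, an epithelial cell adhesion molecule, was the one nectin-like gene at the level of the ligands, with a mean of 11.0 FPKM. Cadm1, Cadm2 and Cadm3 had means of 0.432, 0.072 and 0.306 FPKM.

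The junction machinery on which nectins act was abundant and had 0 of 15 genes under 0.05 in edgeR, with a median log2 fold change of 0.17. Ctnnb1 (beta-catenin) had a mean of 164 FPKM and Cdh1 (E-cadherin) of 59.7 FPKM. Afdn, which encodes afadin, was at 9.54 to 14.8 FPKM in controls and 12.0 to 15.4 FPKM after therapy. The members with the largest changes were Cdh3 (P-cadherin, 1.21 ± 0.71, unadjusted p = 0.116 in edgeR), at 1.41 FPKM in therapy replicate 2 and at most 0.255 FPKM elsewhere, and Cdh2 (N-cadherin, 0.62 ± 0.38, unadjusted p = 0.125 in edgeR).

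Of 16 signaling partners of TIGIT and CD226, 7 were higher and 0 lower at an unadjusted edgeR p under 0.05, against 1.9% of all genes higher, with a median log2 fold change of 0.40, and 0 passed the adjusted test. Without therapy replicate 2 the count was 4 and the median 0.24. Tbx21 (T-bet), a transcription factor of effector T and NK cells, had 1.38 ± 0.38 and Eomes, its relative, 0.88 ± 0.39. Inpp5d (SHIP1), the phosphatase that TIGIT recruits, was at 3.20 to 3.69 FPKM in controls and 3.77 to 6.36 FPKM after therapy. The groups did not overlap, a pattern seen in 0.482% of all genes, and Inpp5d was picked after its values were seen. Itgb2, the beta chain of LFA-1, the integrin with which CD226 associates (mean 34.3 FPKM), and Grb2, an adaptor (mean 30.1 FPKM), had 0.09 ± 0.21 and 0.07 ± 0.09. Many of these genes are expressed by leukocytes in general, and Lck is also in the T cell list.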

How the data were processed

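RNA of 10 tumor libraries (5 control, 5 therapy) was analysed. The authors deposited 1 table with FPKM values and estimated counts per gene. Per the methods, the authors ran FastQC, mapped clean reads to the mouse genome (Ensembl v107) with HISAT2 and built and quantified transcripts with StringTie, and the submitters' processing notes name cutadapt 1.9 and GRCm38. How the deposited estimated counts were made is not given in the sources used here.

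The estimated counts, whole numbers as deposited, were tested with edgeR 4.0.16 (quasi-likelihood, TMM, low counts filtered) in R 4.3.3, with DESeq2 1.42.0 and limma 3.58.1 as alternatives, and p-values adjusted by Benjamini-Hochberg. The count test was checked on simulated data. Correlations used 100000 permutations (scipy 1.17.1). The table lists 98868 transcripts, of which 93772 are in GENCODE M21, so no coordinates of measured genes are given beyond the chromosome. GENCODE M21 was used for the structure of Tigit's transcript, for lengths and sequences of other transcripts, and as the set searched with blastn. Tigit's transcript was searched with blastn 2.17.0. Whether a library is its own animal is not stated, and arms of 5 limit the precision. 0 columns of per-sample values were left out.

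The genes named are the 7 members, in each pathway list the 2 with the highest mean and the 2 with the largest change, the genes most like each member (5 for Tigit, 2 for others), neighbours, and lead marker genes. Inpp5d, Afdn, Lck, Cadm1 to Cadm3 and Cadm4 were added after their values were seen. The members and lists were chosen with earlier results of these data known. Promoters and neighbours come from RefSeq, and proteins were not used here. Alternatives covered scaling, filter, pseudocount, tool, a replicate block and leaving out libraries.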

Additional observations from a re-analysis of the deposited data

Results flagged for a closer look

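Among 28 groups of 5 libraries (14 family genes in control and therapy), 4 held a library far from the others by Dixon's criterion, and none of these was in the 7 members. The nearest of the members was Tigit in the therapy group, where therapy replicate 5 had a gap over range of 0.7097 against the critical value of 0.71. Chance alone gives about 1 in 20. Pvrig was at 0.922 FPKM in therapy replicate 2, with 0.345 FPKM the next highest. Nectin4 was at 2.49 FPKM in the same library, next to 0.656 FPKM. Crtam was at 0.751 FPKM in therapy replicate 1, next to 0.128 FPKM, and at 0.230 FPKM in control replicate 2, next to 0.0720 FPKM.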

How the results depend on the processing

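Across the alternatives for the 7 members' fold changes no adjusted p passed 0.05, and the smallest was 0.524. Cd226, Cd96, Nectin1, Nectin2 and Nectin3 kept their direction in all of them. Tigit changed direction, to -0.0175 with limma on log2(FPKM + 1), with or without the filter, and to -0.0198 with a pseudocount of 0.1, to -0.27 without therapy replicates 2 and 5, and with libraries left out singly it ran from -0.34 to 0.30. Pvr ran from -0.22 to 0.056, being positive without control replicate 5 (0.017) or therapy replicate 1 (0.056). The ratio of Cd226 to Cd3e was 0.038 with a pseudocount of 0.01. The cause was not tested.

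With a replicate block edgeR called 0 genes, and the fold change of Tigit was -0.011. Control and therapy libraries with the same number did not deviate together (r of -0.28, 0.028, 0.0030, 0.53 and -0.096, with 1 of 5 best matched by its own number), so the numbers were not read as pairs. In the paired test of the ratios no p can be under 0.0625, so none could pass 0.05 and it says nothing about them.

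DESeq2 called 6 genes where edgeR called 0. On the TPM scale the mean levels were 143 for Tigit, 0.615 for Cd226, 1.28 for Cd96, 57.0 for Pvr, 8.34 for Nectin1, 41.2 for Nectin2 and 5.78 for Nectin3, in the same order. Cd226 and Cd96 have means under 1 FPKM and so have no value in the filtered limma fits. Their low counts limit what can be said of them.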
